A study of Mus musculus with 11 samples.

Results

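Translation initiation factors (eIF), elongation factors (eEF) and aminoacyl-tRNA synthetases were followed on cDNA arrays of 11 mouse RNA samples. The members are all genes whose symbol in the platform annotation starts with Eif and a number or with Eef, or is 1 capital letter followed by ars, ars1 or ars2. The rule found 74 of the 7114 named genes: 43 initiation factor genes, 7 elongation factor genes and 24 synthetase genes, of which 15 charge tRNA in the cytosol and 9 in mitochondria. All 74 had a value on all 11 arrays. They were measured by 136 probes, 46 genes by 1 probe and 28 by several, whose mean was used.

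Each sample was hybridised once, its own RNA labelled with Cy3 and a mouse embryo reference RNA, shared by all arrays, with Cy5. The series title asks about RAS isoforms in melanocytes, the pigment cells of the skin. There were 4 samples labelled as melanocyte lines: D6_MEL, NRAS_MEL and HRAS_MEL, the last 2 named for RAS isoforms, and Melan A, an established melanocyte line. A further 2 were labelled as fibroblast lines, 3T3, an established line, and VA_MEF, with MEF read as mouse embryonic fibroblast. Another 4 were labelled Heart, Kidney, Liver and Lung, and the cell type of VA_475 is not in the labels. The labels give no animal strain, age, clone number or RAS construct, and the sample descriptions give D6_MEL and NRAS_MEL 1 shared code, with Nras added for the latter. Each group had 1 array and no replicate.

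A value is the log2 ratio of own RNA over reference, so 1 stands for a 2-fold higher level than in the embryo reference, and each array was centred on its median. That the deposited logarithm has base 2 is assumed. The direction was taken from organ marker genes as the likely one and is not stated. The titles name the reference second, which runs against it, and if they describe the table every sign given here turns. Ratios of different genes cannot be ordered as transcript levels, since each is relative to that gene's own level in the reference.

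Marker genes went against several labels, so every array is called by its label and a name such as Heart stands for the array labelled so. Heart correlated with D6_MEL at 0.92 across genes, and the 2 heart markers measured, of 13 listed, had a median of -0.96 there against 3.77 in Melan A. The 3 liver markers, of 12, had a median of 2.54 in Lung and -5.25 in Liver, and the only lung marker measured, of 9, was at 5.75 in Liver. The 3 kidney markers, of 12, had a median of 5.60 in Kidney. The 9 fibroblast markers, of 13, had a median of -2.49 in VA_MEF. Only 5 of 17 melanocyte markers were measured, with medians of -1.17 to -0.50 in the 4 arrays labelled as melanocyte lines and 0.71 in VA_MEF. In Liver, Kidney, Lung and Heart these medians were 0.36, -0.13, -0.48 and -0.72. Mlph, which links pigment granules to their motor, was the highest of the 5 in D6_MEL at 3.18, NRAS_MEL at 2.55, HRAS_MEL at 2.36 and Heart at 2.94. It stood at 3.06 in VA_MEF and at -0.059 in Melan A. Others went the opposite way. Ednrb was the lowest of the 5 in D6_MEL at -2.79, NRAS_MEL at -2.41, HRAS_MEL at -2.98, Heart at -3.41 and VA_MEF at -3.48, and Kit was below 0 in each of these. The class comparisons, the correlations over the arrays and the ranges of the synthetases and of Eif2s3y are given with and without the arrays labelled Heart and Melan A.

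Protein synthesis begins when initiation factors bring the initiator tRNA and the small ribosomal subunit to a messenger RNA. eIF2 carries the initiator tRNA, eIF2B reloads eIF2 with GTP, eIF3 holds the small subunit, and the eIF4 factors bind the cap and unwind the leader. Elongation factors then deliver charged tRNAs and move the ribosome along. Aminoacyl-tRNA synthetases attach each amino acid to its tRNA, with separate enzymes for cytosol and mitochondria in most cases. When amino acids run short or the endoplasmic reticulum is stressed, kinases phosphorylate eIF2, general initiation slows, and translation of the transcription factor Atf4 rises. Atf4 is known to bind composite C/EBP-ATF elements in the promoters of amino acid enzymes, transporters and several cytosolic synthetases.

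The composite element was searched as TGATGNAA on both strands in the 250 bases before the annotated gene start, in RefSeq promoters of build GRCm38.p6. The cytosolic synthetases, described next, varied together across the arrays and with Asns (asparagine synthetase), whose promoter carries the element too. Whether the element has a part in that variation was not tested. Of all 32851 promoters, 1134 (3.45%) held it. A promoter was given for 58 of the 74 members and 5 of them held the letters: Aars, Gars, Tars, Eif2s3x and Eef2k. These were 3 of 9 cytosolic synthetases, 1 of 3 eIF2 subunit genes and 1 of 3 genes of eEF2 and its modifiers with a promoter. The letters were in 0 of 8 mitochondrial synthetases, 0 of 9 eIF3 genes and 0 of 7 eIF4 genes. On a list of known Atf4 targets, which also holds Atf4 itself, 3 of 12 genes with a promoter held the letters. Capitals mark the match in the strand of the gene, which is read 5′ to 3′.
Aars, chr8:111033690-111033777, plus strand: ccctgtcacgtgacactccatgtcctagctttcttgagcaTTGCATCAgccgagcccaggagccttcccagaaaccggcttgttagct
Gars, chr6:55037931-55038000, plus strand: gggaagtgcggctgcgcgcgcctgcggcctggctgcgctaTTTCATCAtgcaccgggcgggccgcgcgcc
Tars, chr15:11399659-11399713, minus strand: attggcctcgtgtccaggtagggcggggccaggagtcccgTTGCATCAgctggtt
Eif2s3x, chrX:94212700-94212787, minus strand: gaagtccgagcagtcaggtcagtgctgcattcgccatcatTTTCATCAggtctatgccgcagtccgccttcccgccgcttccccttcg
Eef2k, chr7:120851065-120851152, plus strand: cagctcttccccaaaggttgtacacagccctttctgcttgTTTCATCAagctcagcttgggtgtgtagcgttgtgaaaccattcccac
Asns, chr6:7693210-7693272, minus strand: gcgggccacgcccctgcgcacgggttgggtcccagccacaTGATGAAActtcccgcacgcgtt
The match lay 112 to 105 bases before the start of Aars, 30 to 23 before Gars, 15 to 8 before Tars, 96 to 89 before Eif2s3x, 84 to 77 before Eef2k and 23 to 16 before Asns. A match describes the letters and is no measured binding site.

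Cytosolic synthetases had wider ranges over the arrays than mitochondrial ones. The highest minus the lowest array had a median of 2.01 over the 15 cytosolic genes, against 1.09 over the 9 mitochondrial ones, 1.32 over all members and 1.55 over all genes. Over the 9 arrays without Heart and Melan A these medians were 1.85, 1.02, 1.27 and 1.39. The median ratio of the cytosolic genes was 0.81 in D6_MEL, 0.43 in NRAS_MEL, 0.15 in HRAS_MEL, -0.28 in Melan A, 0.83 in 3T3, 1.12 in VA_MEF, 0.31 in VA_475, 0.48 in Heart, -0.29 in Kidney, -0.48 in Liver and -0.23 in Lung. The 4 lowest arrays were thus those labelled Liver, Kidney, Melan A and Lung, and every other array was above 0. In bulk RNA, fewer cells of a type and less RNA per cell cannot be told apart.

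The 9 mitochondrial synthetases did not share that order. Their median was 0.25 in Melan A, 0.20 in Lung, 0.18 in Kidney, 0.17 in NRAS_MEL, 0.00036 in VA_MEF, -0.0025 in Heart, -0.012 in VA_475, -0.037 in D6_MEL, -0.23 in HRAS_MEL, -0.24 in Liver and -0.28 in 3T3. Cytosolic minus mitochondrial medians were above 0 in D6_MEL, NRAS_MEL, HRAS_MEL, 3T3, VA_MEF, VA_475 and Heart, at 0.25 to 1.12, and below 0 in Melan A, Kidney, Liver and Lung, at -0.53 to -0.24. The proliferation list moved with the same arrays: its 11 measured genes, of 13, had medians of -0.53 to 0.29 in the first 7 arrays and -2.22 to -1.46 in the other 4. The part of proliferation in the synthetase values was not tested.

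**Figure D1:**
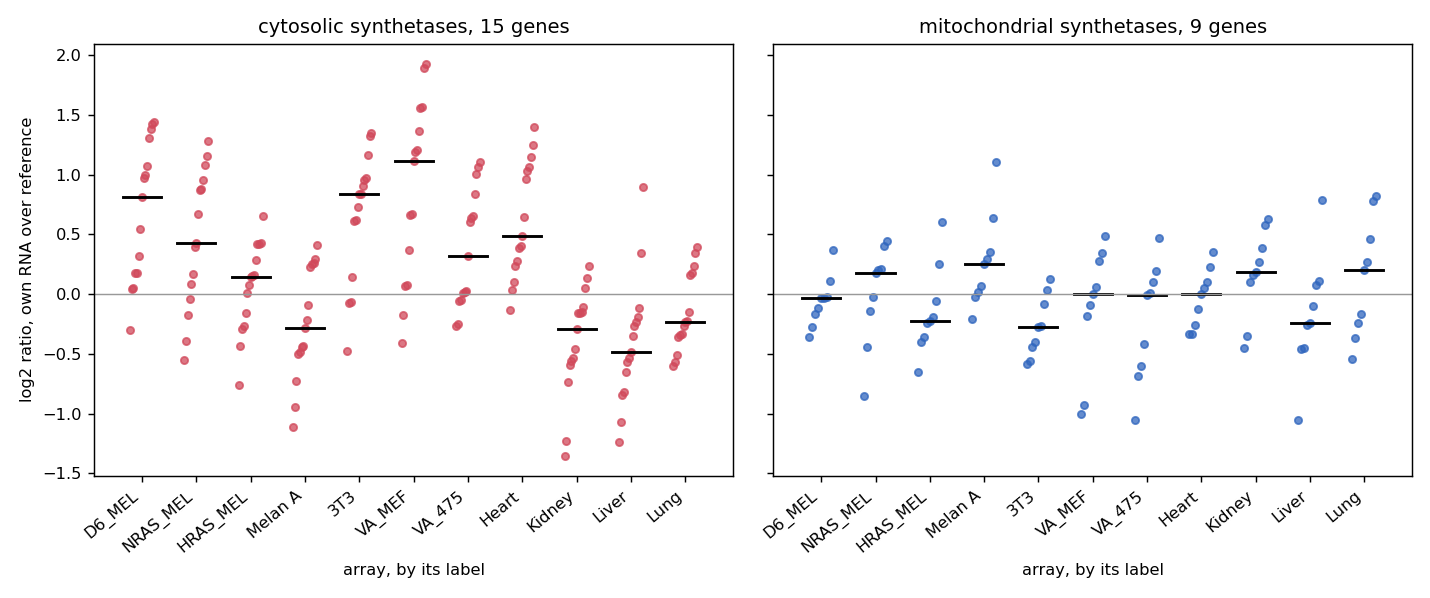
Log2 ratio of own RNA over the embryo reference (y axis) for each synthetase gene on each of the 11 arrays (x axis, by label), cytosolic genes on the left and mitochondrial genes on the right. Points are genes and black bars are medians. The cytosolic median runs from -0.48 in Liver to 1.12 in VA_MEF, while the mitochondrial medians lie between -0.28 and 0.25.

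The cytosolic enzymes also varied together gene by gene. Over the 11 arrays, which share the reference and include the near-alike pair D6_MEL and Heart, Pearson r was above 0 for 102 of 105 pairs of cytosolic synthetases, with a median of 0.54. It was above 0 for 19 of 36 mitochondrial pairs, median 0.14, and for 51 of 135 pairs of a cytosolic with a mitochondrial gene, median -0.16. The median over pairs of all genes was -0.0023. Over the 9 arrays without Heart and Melan A the counts were 102 of 105, 20 of 36 and 59 of 135, with medians of 0.53, 0.039 and -0.055. These correlations describe the arrays and carry no test.

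The 4 synthetases with the largest range were Iars, Aars, Yars and Gars. Iars, which charges tRNA with isoleucine, stood at 1.56 in VA_MEF, 1.0 in D6_MEL, 0.83 in 3T3, 0.48 in Heart, 0.41 in Melan A, 0.16 in NRAS_MEL, -0.15 in Lung, -0.16 in Kidney, -0.25 in VA_475, -0.30 in HRAS_MEL and -1.23 in Liver. It was high in VA_MEF, D6_MEL and 3T3 and far lowest in Liver, and HRAS_MEL was next to lowest. Aars, which charges tRNA with alanine, stood at 1.35 in 3T3, 1.30 in D6_MEL, 1.01 in VA_475, 0.96 in Heart, 0.37 in VA_MEF, -0.33 in Lung, -0.55 in NRAS_MEL, -0.77 in HRAS_MEL, -0.82 in Liver, -1.11 in Melan A and -1.36 in Kidney. The 4 highest arrays, 3T3, D6_MEL, VA_475 and Heart, lay close together, while NRAS_MEL and HRAS_MEL lay among Lung, Liver, Melan A and Kidney.

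Yars, the tyrosine enzyme, stood at 1.40 in Heart, 0.60 in VA_475, 0.18 in D6_MEL, 0.065 in VA_MEF, 0.0050 in HRAS_MEL, -0.17 in NRAS_MEL, -0.47 in 3T3, -0.48 in Liver, -0.60 in Lung, -0.94 in Melan A and -1.23 in Kidney. Heart was highest by a wide gap, the range was 2.62 with that array and Melan A and 1.83 without them, and D6_MEL minus Heart was -1.22, although those 2 arrays are alike over most genes. Gars, the glycine enzyme, which serves both cytosol and mitochondria from 1 gene, stood at 1.93 in VA_MEF, 1.38 in D6_MEL, 1.32 in 3T3, 1.28 in NRAS_MEL, 1.15 in Heart, 1.11 in VA_475, 0.079 in HRAS_MEL, -0.27 in Liver, -0.28 in Melan A, -0.57 in Lung and -0.60 in Kidney. The values formed 3 levels: 6 arrays at 1.11 or more, HRAS_MEL near 0, and Liver, Melan A, Lung and Kidney below 0.

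The other 11 cytosolic genes had smaller ranges, from 0.59 for Tars to 2.42 for Nars. Lars, the leucine enzyme, stood at 1.44 in D6_MEL, 1.37 in VA_MEF, 1.16 in NRAS_MEL, 1.06 in Heart, 0.97 in 3T3, 0.65 in VA_475, 0.65 in HRAS_MEL, 0.23 in Melan A, -0.23 in Lung, -0.23 in Liver and -0.56 in Kidney, so that Kidney, Liver and Lung lay below 0 and all 8 other arrays above it. Nars (asparagine) had its highest value in VA_MEF, at 1.89, and its lowest in Liver, at -0.54. Sars (serine), measured by 3 probes, ran from 1.56 in VA_MEF to -0.57 in Liver. Mars1 (methionine) ran from 1.03 in Heart to -1.07 in Liver, and Rars (arginine) from 1.12 in VA_MEF to -0.74 in Kidney.

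Cars, Kars, Wars, Hars and Qars spanned 1.02 to 1.28. Kars, which like Gars serves both compartments, was highest in NRAS_MEL, at 0.88, and lowest in Kidney, at -0.29. Wars, the tryptophan enzyme, was above 0 on every array, with Liver, at 0.89, second only to VA_MEF, at 1.20. Tars (threonine), whose promoter holds the searched letters, ran only from 0.085 in NRAS_MEL to -0.50 in Melan A.

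Among the mitochondrial enzymes, Iars2 and Sars2 had the largest ranges. Iars2, the mitochondrial isoleucine enzyme, stood at 1.10 in Melan A, 0.63 in Kidney, 0.46 in Lung, 0.22 in Heart, 0.057 in VA_MEF, -0.027 in D6_MEL, -0.058 in HRAS_MEL, -0.40 in 3T3, -0.46 in Liver, -0.85 in NRAS_MEL and -1.05 in VA_475. Melan A, whose array carries the heart markers, was highest, and the pair Iars and Iars2 had Iars above Iars2 in D6_MEL, NRAS_MEL, 3T3, VA_MEF, VA_475 and Heart and below it in the other 5. Sars2 stood at 0.21 in NRAS_MEL, -0.13 in Heart, -0.21 in Melan A, -0.23 in HRAS_MEL, -0.24 in Lung, -0.35 in Kidney, -0.36 in D6_MEL, -0.56 in 3T3, -0.61 in VA_475, -1.0 in VA_MEF and -1.06 in Liver. It was above 0 in NRAS_MEL only. Ears2, Hars2, Mars2, Rars2, Tars2, Vars2 and Wars2 spanned 0.56 to 1.22, with Mars2 highest in the arrays labelled Lung (0.82), Liver (0.78) and Kidney (0.58). The 2 probes of Mars2 disagreed there, at 0.030 and 1.62 in Lung, -0.16 and 1.73 in Liver and 0.015 and 1.14 in Kidney, so that its order rests on 1 of them.

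Atf4 itself and known targets of Atf4 and the amino acid response were taken as a pathway list, of which 13 of 26 were measured. Their median was 1.06 in D6_MEL, 0.57 in NRAS_MEL, 0.14 in HRAS_MEL, -0.78 in Melan A, 0.79 in 3T3, 2.0 in VA_MEF, 0.72 in VA_475, 1.01 in Heart, -0.37 in Kidney, -0.30 in Liver and -0.83 in Lung. The 4 lowest arrays of the list were also those labelled Lung, Melan A, Kidney and Liver. In D6_MEL, Melan A, 3T3 and Heart the list median was the value of Atf4 itself. Asns stood at 2.99 in VA_MEF, 2.85 in D6_MEL, 2.45 in Heart, 1.79 in 3T3, 1.77 in NRAS_MEL, 1.41 in VA_475, 0.14 in HRAS_MEL, -1.58 in Liver, -2.37 in Kidney, -2.84 in Lung and -3.07 in Melan A. Over the 11 arrays the r of each cytosolic synthetase with Asns was 0.42 to 0.96, median 0.72, and with Atf4 itself 0.48 to 0.94, median 0.69. This was not particular to the synthetases. With Asns and Atf4 in turn, the 12 eIF3 genes had a median r of 0.56 and 0.62, with lowest values of -0.67 and -0.67. The 4 eEF1 genes had medians of 0.62 and 0.59 and ran from -0.26 to 0.84 and from -0.25 to 0.80. Among these 4 is Eef1e1, a scaffold of the multi-synthetase complex, at 0.70 and 0.79. The 9 eIF4 genes had 0.15 and 0.0057. For the mitochondrial synthetases the median r with Asns was -0.47. Without Heart and Melan A the cytosolic r was 0.49 to 0.98 with Asns, median 0.71, and 0.34 to 0.93 with Atf4, median 0.72, and the mitochondrial median with Asns was -0.24. The arrays and the reference are shared by all these values, and no cause was tested.

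**Figure D2:**
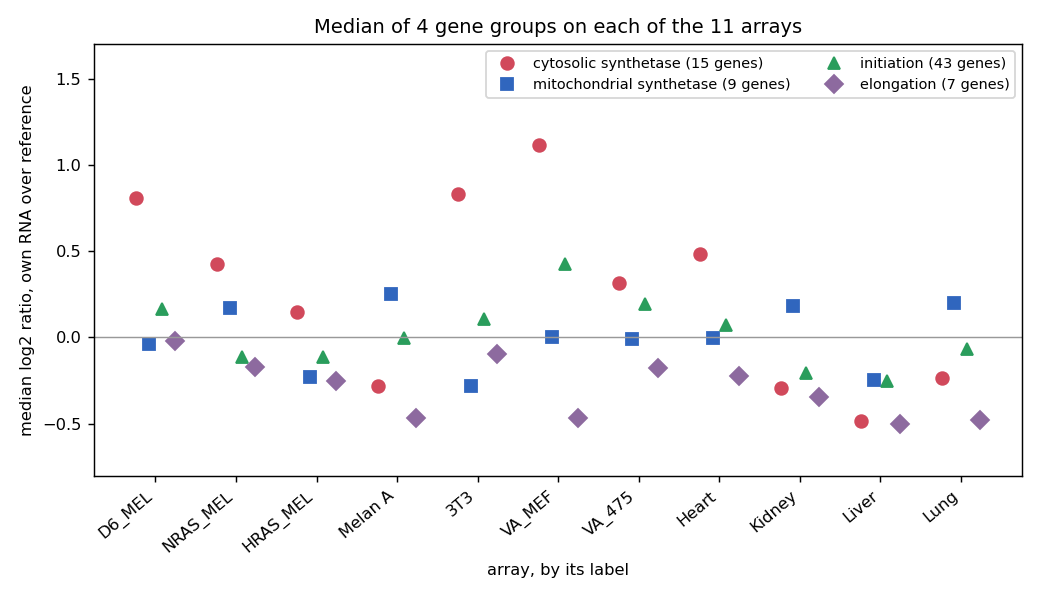
Median log2 ratio of own RNA over reference (y axis) of the cytosolic synthetases, mitochondrial synthetases, initiation factors and elongation factors on each of the 11 arrays (x axis, by label). Each point is the median of 1 gene group on 1 array. Cytosolic synthetases spread from -0.48 to 1.12, initiation factors from -0.25 to 0.42.

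Single initiation factor genes had a median range of 1.35 over the arrays, against 1.55 over all genes. Compared with the cytosolic synthetases, the 43 initiation factor genes moved less between arrays in median. Their median was 0.17 in D6_MEL, -0.11 in NRAS_MEL, -0.11 in HRAS_MEL, -0.0057 in Melan A, 0.10 in 3T3, 0.42 in VA_MEF, 0.19 in VA_475, 0.069 in Heart, -0.21 in Kidney, -0.25 in Liver and -0.066 in Lung. VA_MEF was highest and Liver lowest, and the all-gene medians lay at -0.092 to -0.028. The subgroups differed, and single genes within them spanned up to 5.48.

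Genes of eIF2 itself included the widest member. Eif2s2, the beta subunit, measured by 4 probes, stood at 1.88 in VA_MEF, 1.42 in 3T3, 1.31 in VA_475, 0.99 in NRAS_MEL, 0.95 in D6_MEL, 0.64 in HRAS_MEL, 0.56 in Heart, 0.080 in Lung, -0.10 in Melan A, -0.25 in Liver and -0.28 in Kidney. The 4 arrays Lung, Melan A, Liver and Kidney lay at 0.080 or lower and the other 7 at 0.56 or higher. Eif2s3x, the gamma subunit gene on the X chromosome, stood at 0.97 in D6_MEL, 0.86 in Melan A, 0.75 in Heart, 0.72 in Lung, 0.64 in VA_MEF, 0.57 in Kidney, 0.46 in 3T3, -0.0050 in Liver, -0.015 in VA_475, -0.62 in HRAS_MEL and -0.68 in NRAS_MEL. NRAS_MEL and HRAS_MEL were the 2 lowest, apart from all others.

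Eif2s3y, its homologue on the Y chromosome, stood at 4.04 in Melan A, 0.52 in Lung, 0.32 in Kidney, -0.19 in D6_MEL, -0.67 in Liver, -0.83 in HRAS_MEL, -1.09 in NRAS_MEL, -1.09 in VA_MEF, -1.26 in VA_475, -1.37 in 3T3 and -1.45 in Heart. Melan A stood alone at 4.04, and the next array was Lung. Y-linked genes are read only in male cells, and the labels give no sex. The 2 genes are close in sequence, so a cDNA probe may read both, which was not tested. Eif2s1, the alpha subunit that the stress kinases phosphorylate, was not among the named genes.

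**Figure D3:**
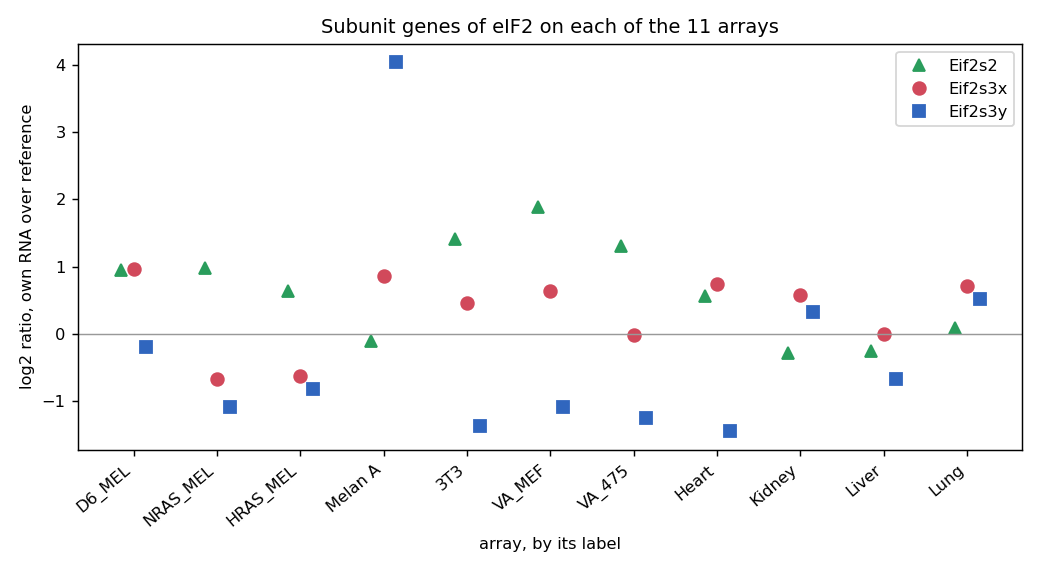
Log2 ratio of own RNA over reference (y axis) of the 3 measured eIF2 subunit genes on each of the 11 arrays (x axis, by label). Each point is 1 gene on 1 array. Eif2s3y is at 4.04 in Melan A and between -1.45 and 0.52 elsewhere, and Eif2s3x is at -0.68 in NRAS_MEL and -0.62 in HRAS_MEL.

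Arrays alike in Eif2s3y were also alike in a few other genes. The highest r over the 11 arrays was with Timp4 at 0.98, Arid4a at 0.97 and Mdh2 at 0.96. Each of these 3 genes was highest in Melan A, Timp4 at 1.69, Arid4a at 1.75 and Mdh2, a mitochondrial enzyme of the citric acid cycle, at 3.22. Without Heart and Melan A the r was 0.90, 0.80 and 0.77, and the range of Eif2s3y was 1.9 in place of 5.48.

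Eif2a and Eif2d carry eIF2 in their name but are separate factors that can bring tRNA to the ribosome without eIF2. Eif2a stood at 0.91 in VA_MEF, 0.23 in Heart, 0.19 in VA_475, 0.19 in Melan A, 0.18 in D6_MEL, 0.17 in Lung, 0.12 in HRAS_MEL, 0.036 in Kidney, -0.099 in Liver, -0.11 in NRAS_MEL and -0.17 in 3T3. It was high in VA_MEF only. Eif2d stood at 0.65 in VA_MEF, 0.48 in Lung, 0.42 in D6_MEL, 0.30 in VA_475, 0.29 in HRAS_MEL, 0.10 in 3T3, 0.072 in Heart, 0.064 in Liver, 0.045 in Kidney, 0.036 in Melan A and -0.0064 in NRAS_MEL, with VA_MEF, Lung and D6_MEL on top and only NRAS_MEL below 0.

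The 5 genes of eIF2B, the exchange factor, had medians of -0.33 to -0.14 in Kidney, Liver and Lung and 0.16 to 0.77 in the other arrays, except HRAS_MEL at -0.20. Eif2b2 had the largest range and stood at 1.74 in VA_475, 1.43 in NRAS_MEL, 0.48 in D6_MEL, 0.46 in 3T3, 0.44 in Heart, 0.21 in VA_MEF, -0.0098 in HRAS_MEL, -0.20 in Liver, -0.44 in Kidney, -0.57 in Melan A and -0.63 in Lung. VA_475 and NRAS_MEL were far above the rest. Eif2b3 stood at 1.24 in VA_475, 1.03 in VA_MEF, 0.99 in NRAS_MEL, 0.70 in 3T3, 0.45 in D6_MEL, 0.42 in Heart, -0.046 in Liver, -0.20 in HRAS_MEL, -0.23 in Melan A, -0.43 in Lung and -0.48 in Kidney. It shared with Eif2b2 the order VA_475 above 3T3, and NRAS_MEL above D6_MEL above HRAS_MEL. Eif2b4 ran the other way, from 0.22 in Lung to -0.99 in Heart, and Eif2b1 and Eif2b5 spanned 0.90 and 0.86.

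Of the eIF2 kinases, 2 were measured, and both had narrow ranges. Eif2ak1 (HRI), which senses haem, stood at 0.11 in Kidney, -0.026 in Lung, -0.17 in Liver, -0.26 in NRAS_MEL, -0.26 in Melan A, -0.39 in Heart, -0.47 in VA_475, -0.51 in HRAS_MEL, -0.53 in VA_MEF, -0.60 in D6_MEL and -0.76 in 3T3. The 3 highest arrays were Kidney, Lung and Liver. Eif2ak4 (GCN2), which senses uncharged tRNA, was below 0 throughout, at -0.066 in Lung, -0.12 in VA_475, -0.22 in HRAS_MEL, -0.33 in 3T3, -0.39 in Liver, -0.46 in D6_MEL, -0.52 in Kidney, -0.60 in VA_MEF, -0.60 in Heart, -0.73 in Melan A and -0.77 in NRAS_MEL. The arrays followed each other without a gap, Lung at the top and NRAS_MEL at the bottom.

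The 12 eIF3 genes had median ratios of -0.073 in D6_MEL, -0.18 in NRAS_MEL, -0.11 in HRAS_MEL, -0.29 in Melan A, 0.18 in 3T3, 0.59 in VA_MEF, 0.29 in VA_475, -0.14 in Heart, -0.38 in Kidney, -0.36 in Liver and -0.48 in Lung. The 3 arrays highest in eIF3 were VA_MEF, VA_475 and 3T3, and the 3 lowest were Lung, Kidney and Liver. Eif3l had the largest range and stood at 0.83 in VA_MEF, 0.74 in 3T3, 0.52 in VA_475, 0.21 in D6_MEL, 0.040 in Heart, -0.19 in Kidney, -0.61 in Melan A, -0.64 in HRAS_MEL, -1.07 in Lung, -1.11 in NRAS_MEL and -2.25 in Liver. Liver was far below the rest, and NRAS_MEL lay beside Lung. Eif3c stood at 1.54 in VA_MEF, 0.66 in D6_MEL, 0.46 in 3T3, 0.27 in HRAS_MEL, 0.10 in Heart, 0.050 in NRAS_MEL, -0.038 in Lung, -0.083 in Kidney, -0.20 in VA_475, -0.39 in Melan A and -0.69 in Liver. VA_MEF was highest by a wide gap.

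Eif3a, the largest subunit, measured by 7 probes that agreed to a median SD of 0.28, ran from 0.73 in VA_MEF to -0.99 in Liver. Eif3e was -0.83 to -0.30 in Melan A, Kidney, Liver and Lung and 0.16 to 0.83 in the other 7 arrays. Eif3d, a subunit that can bind the cap, was opposite to most, highest in Lung at 0.85 and lowest in VA_MEF at -0.47. The remaining subunits, Eif3b, Eif3f, Eif3h, Eif3i, Eif3j1, Eif3k and Eif3m, spanned 0.89 to 1.54. Of 66 pairs of eIF3 genes, 55 had an r above 0, median 0.45, and Eif3d was in each of the 11 pairs below it, down to -0.82 with Eif3a. Without Heart and Melan A 55 pairs were again above 0, median 0.49.

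Of the cap-binding group, Eif4e binds the cap itself. Measured by 4 probes, it stood at 0.85 in Melan A, 0.57 in D6_MEL, 0.30 in HRAS_MEL, 0.14 in VA_475, 0.069 in Heart, -0.070 in 3T3, -0.099 in NRAS_MEL, -0.10 in VA_MEF, -0.32 in Kidney, -0.54 in Lung and -0.92 in Liver, high in Melan A and D6_MEL and lowest in the 3 arrays labelled Kidney, Lung and Liver. Eif4e2, which can occupy the cap without recruiting Eif4g, stood at 0.32 in 3T3, 0.082 in NRAS_MEL, -0.023 in Heart, -0.12 in D6_MEL, -0.13 in VA_475, -0.20 in Lung, -0.39 in Kidney, -0.57 in HRAS_MEL, -0.57 in VA_MEF, -0.81 in Liver and -0.97 in Melan A. Here Melan A was lowest, the reverse of Eif4e. Eif4e3, another family member, stood at 2.10 in Melan A, 1.63 in VA_MEF, 1.10 in Liver, 1.06 in D6_MEL, 1.01 in Heart, 0.42 in Kidney, 0.41 in NRAS_MEL, 0.38 in Lung, 0.13 in HRAS_MEL, -0.17 in 3T3 and -0.33 in VA_475. Melan A and VA_MEF were highest and VA_475 and 3T3 lowest.

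Eif4a1 and Eif4a2 encode near-alike RNA helicases. Eif4a1 stood at 0.45 in 3T3, 0.44 in VA_475, 0.16 in D6_MEL, -0.033 in Heart, -0.28 in Lung, -0.36 in VA_MEF, -0.39 in Liver, -0.48 in HRAS_MEL, -0.64 in NRAS_MEL, -0.96 in Kidney and -1.25 in Melan A. Eif4a2 stood at 0.68 in Liver, 0.41 in Kidney, 0.31 in Melan A, 0.12 in Lung, -0.024 in VA_475, -0.20 in VA_MEF, -0.31 in HRAS_MEL, -0.34 in 3T3, -0.68 in NRAS_MEL, -0.73 in D6_MEL and -0.86 in Heart. The orders differed: Liver, Kidney, Melan A and Lung were the 4 highest arrays for Eif4a2, and Kidney and Melan A the 2 lowest for Eif4a1.

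The scaffold Eif4g1 was not among the named genes. Eif4g2 (DAP5), a scaffold that does not bind Eif4e, stood at 0.75 in Melan A, 0.25 in D6_MEL, 0.14 in Kidney, 0.14 in VA_MEF, 0.14 in Heart, -0.15 in 3T3, -0.27 in Lung, -0.37 in HRAS_MEL, -0.41 in VA_475, -0.44 in Liver and -0.93 in NRAS_MEL. Its 5 probes disagreed by an SD of 0.40 (median over arrays), and NRAS_MEL was lowest. Eif4g3 stood at 0.096 in Kidney, -0.18 in Heart, -0.26 in D6_MEL, -0.33 in VA_MEF, -0.44 in Melan A, -0.45 in 3T3, -0.61 in HRAS_MEL, -0.64 in Liver, -0.65 in NRAS_MEL, -0.90 in VA_475 and -0.99 in Lung. Eif4enif1 (4E-T), which binds Eif4e in silenced messages, was the only member of the binding group measured and stood at 0.57 in Kidney, 0.19 in Melan A, 0.18 in VA_MEF, 0.13 in D6_MEL, 0.093 in 3T3, 0.026 in HRAS_MEL, -0.016 in Liver, -0.024 in Heart, -0.17 in VA_475, -0.17 in Lung and -0.46 in NRAS_MEL. Kidney was highest and NRAS_MEL lowest, but its 3 probes ran from -0.68 to 2.29 in Kidney, an SD of 1.54, so that rank rests on probes that disagree. Eif4b ran from 0.52 in Heart to -0.82 in Liver, and the 2 probes of Eif4h differed by an SD of 1.57, so its mean says little.

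Among the factors that scan and select the start codon, Eif1a stood at 1.24 in HRAS_MEL, 0.90 in VA_MEF, 0.71 in 3T3, 0.66 in VA_475, 0.23 in D6_MEL, 0.15 in Lung, -0.031 in NRAS_MEL, -0.12 in Liver, -0.18 in Heart, -0.43 in Kidney and -0.77 in Melan A. HRAS_MEL was highest and Melan A lowest. Eif1ax, the X-linked copy, stood at 0.78 in D6_MEL, 0.72 in Heart, 0.53 in 3T3, 0.42 in HRAS_MEL, 0.40 in NRAS_MEL, 0.33 in Melan A, 0.18 in VA_475, -0.19 in Kidney, -0.49 in Lung, -0.50 in Liver and -0.56 in VA_MEF. The lowest values were in VA_MEF, Liver and Lung. Its 2 probes disagreed by a median SD of 0.46, at -1.06 and 0.079 in Lung and -0.48 and 1.14 in Melan A, so the order is uncertain. Eif1ad, a related gene, stood at 0.54 in VA_475, 0.32 in VA_MEF, 0.15 in 3T3, 0 in Lung, -0.090 in D6_MEL, -0.12 in Heart, -0.34 in NRAS_MEL, -0.43 in Melan A, -0.49 in Kidney, -0.92 in Liver and -1.26 in HRAS_MEL. HRAS_MEL was lowest in Eif1ad and highest in Eif1a. Eif1b spanned 0.82.

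The eIF5 and eIF6 genes act in subunit joining, in elongation and on the free large subunit. Eif5a, whose hypusine residue helps ribosomes through difficult stretches, stood at 0.92 in 3T3, 0.63 in Melan A, 0.63 in VA_475, 0.58 in D6_MEL, 0.50 in Kidney, 0.24 in Lung, 0.19 in NRAS_MEL, 0.19 in Heart, 0.080 in VA_MEF, 0.064 in HRAS_MEL and 0.0038 in Liver, never below 0. Its paralogue Eif5a2 stood at 0.94 in Heart, 0.59 in VA_MEF, 0.58 in D6_MEL, -0.15 in NRAS_MEL, -0.25 in Liver, -0.38 in VA_475, -0.45 in 3T3, -0.47 in Kidney, -0.53 in HRAS_MEL, -1.0 in Lung and -1.18 in Melan A. Heart, VA_MEF and D6_MEL were high and all 8 other arrays were below 0. Eif6, which keeps the large subunit free, stood at 1.16 in VA_475, 0.85 in 3T3, 0.69 in VA_MEF, 0.33 in D6_MEL, 0.30 in HRAS_MEL, 0.30 in Heart, 0.24 in NRAS_MEL, 0.10 in Liver, 0.066 in Lung, 0.0012 in Kidney and -0.77 in Melan A. Melan A was the only array below 0. Eif5 was highest in VA_MEF, at 0.86, and Eif5b lowest in Liver, at -0.44.

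The 7 elongation genes were below 0 in median on every array, from -0.50 in Liver to -0.020 in D6_MEL. With 1 probe per gene, or the median of probes, VA_MEF turned to 0.15. Eef1a1, which delivers charged tRNA, was measured by 8 probes and stood at 0.33 in Kidney, 0.14 in Lung, -0.18 in D6_MEL, -0.23 in Heart, -0.25 in HRAS_MEL, -0.47 in VA_MEF, -0.50 in 3T3, -0.50 in VA_475, -0.56 in Liver, -0.69 in NRAS_MEL and -0.77 in Melan A. Kidney and Lung were its only arrays above 0 in mean. Its probes disagreed by a median SD of 0.45. They ran from -0.28 to 1.03 in Kidney, from -0.77 to 0.98 in Lung and from -1.60 to 1.74 in Melan A, so sign and order are uncertain. Its paralogue Eef1a2, the form of muscle and neurons, was not among the named genes, and cDNA probes of this family may hybridise with near-identical copies, which was not tested.

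Eef1b2, the exchange subunit of eEF1, stood at 0.66 in VA_MEF, 0.46 in NRAS_MEL, 0.22 in 3T3, 0.21 in VA_475, 0.089 in HRAS_MEL, 0.047 in D6_MEL, -0.16 in Heart, -0.45 in Liver, -0.46 in Melan A, -0.96 in Lung and -1.17 in Kidney. It was the elongation gene with the largest range, and the 4 organ-labelled arrays and Melan A lay below 0 and the other 6 above it. The genes most like it over the 11 arrays were Rpl10a at r of 0.98, Ago2 at 0.96 and Rpl12 at 0.96, and Rpl10a and Rpl12 are proteins of the large ribosomal subunit. Without Heart and Melan A these were 0.99, 0.96 and 0.96. Eef1e1, a scaffold of the multi-synthetase complex in spite of its name, stood at 0.96 in VA_MEF, 0.67 in VA_475, 0.25 in 3T3, -0.0039 in D6_MEL, -0.016 in NRAS_MEL, -0.26 in Heart, -0.34 in Kidney, -0.36 in Liver, -0.48 in Melan A, -0.53 in HRAS_MEL and -0.67 in Lung. VA_MEF and VA_475 were highest. Eef1g was measured by 7 probes that disagreed by a median SD of 1.05, so its mean of -1.07 in Lung to 0.16 in 3T3 is uncertain.

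Eef2, which moves the ribosome, had the smallest range of all members, 0.38, at -0.16 in Melan A, -0.17 in NRAS_MEL, -0.18 in Heart, -0.18 in VA_475, -0.24 in Kidney, -0.40 in HRAS_MEL, -0.45 in 3T3, -0.47 in VA_MEF, -0.48 in Lung, -0.50 in Liver and -0.54 in D6_MEL. Its 4 probes agreed to a median SD of 0.12. Eef2k, the kinase that slows Eef2, stood at 0.12 in NRAS_MEL, 0.036 in Liver, -0.012 in Lung, -0.020 in D6_MEL, -0.098 in 3T3, -0.12 in Melan A, -0.16 in VA_475, -0.18 in Heart, -0.23 in HRAS_MEL, -0.57 in VA_MEF and -0.61 in Kidney. Kidney and VA_MEF were lowest. Eef2kmt, which methylates Eef2, stood at 0.49 in Kidney, 0.41 in HRAS_MEL, 0.15 in VA_MEF, 0.0045 in D6_MEL, -0.16 in Melan A, -0.38 in VA_475, -0.39 in NRAS_MEL, -0.40 in Lung, -0.42 in Heart, -0.46 in 3T3 and -0.56 in Liver. Kidney and HRAS_MEL were highest.

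The 3 labelled classes were compared with limma, an empirical Bayes linear model, with Benjamini-Hochberg adjustment over all genes and a threshold of 0.05. Lines and organs of 1 class stand in for replicates, so the p-values rest on how far lines or organs differ from each other. D6_MEL and NRAS_MEL share 1 code in the sample descriptions, so they may not be independent lines. The fit does not take that into account, and p-values of the melanocyte class would be too small if they are related. In melanocyte minus organ class (4 arrays against 4), 0 of 7064 genes (0%) and 0 of 74 members passed, with 291 genes and 2 members at an unadjusted p under 0.05. The smallest member p-values upward were those of Eif4e at 0.83 ± 0.27 (SE), Eef1b2 at 0.72 and Lars at 0.86, and downward those of Eif3d at -0.38, Mars2 at -0.39 and Eef1a1 at -0.39. All had an adjusted limma p of 0.930.

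In fibroblast minus organ class (2 arrays against 4), 0 of 7064 genes (0%) passed too, with 815 genes, or 11.5%, at an unadjusted p under 0.05. Among the members 22 were at that level, 29.7%, of which 19 were higher and 3 lower in the fibroblast class. Eif2s2 at 1.62 ± 0.37 (SE), Eef1e1 at 1.01 and Eif3e at 1.16 led upward, and Eif3d at -0.85, Hars2 at -0.68 and Eif2ak1 at -0.53 downward. Adjusted limma p-values of these 6 genes were 0.265 to 0.428. All 15 cytosolic synthetases were above 0, median 0.85, against 4 of 9 mitochondrial ones, median -0.31, with an all-gene median of -0.052. Of the 12 eIF3 genes 11 were above 0, median 0.74, and of all 43 initiation factor genes 36 were, median 0.42.

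Without the arrays labelled Heart and Melan A, whose markers went against their labels, some members passed. In melanocyte minus organ class (3 against 3), limma called 152 of 7044 genes (2.16%), of which 73 (1.04%) were higher in the lines, and 1 member, Lars, at 1.42 ± 0.27 (SE) with an adjusted p of 0.0445. The 15 cytosolic synthetases were all above 0, median 0.79, with Gars at 1.39, Rars at 1.05 and Nars at 0.93, none of which passed. Of the 9 mitochondrial ones 4 were above 0, median -0.24.

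In fibroblast minus organ class (2 against 3), 164 genes passed (2.33%), 76 of them higher in the lines (1.08%), and 4 members, all higher. Eif2s2 stood at 1.80 ± 0.26 (SE) with an adjusted limma p of 0.0249, and Eif3e at 1.34 ± 0.24 (SE) with 0.0369. Gars stood at 2.10 ± 0.42 (SE) and Lars at 1.51 ± 0.30 (SE), both with an adjusted limma p of 0.0483. When VA_MEF, whose markers also go against its label, was left out as well, 3T3 stood alone on its side and was assumed to vary like the other classes, and no member passed in either comparison. Lars then had an adjusted limma p of 0.0667 in melanocyte minus organ and Eif2s2 had 0.146 in fibroblast minus organ.

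**Figure D4:**
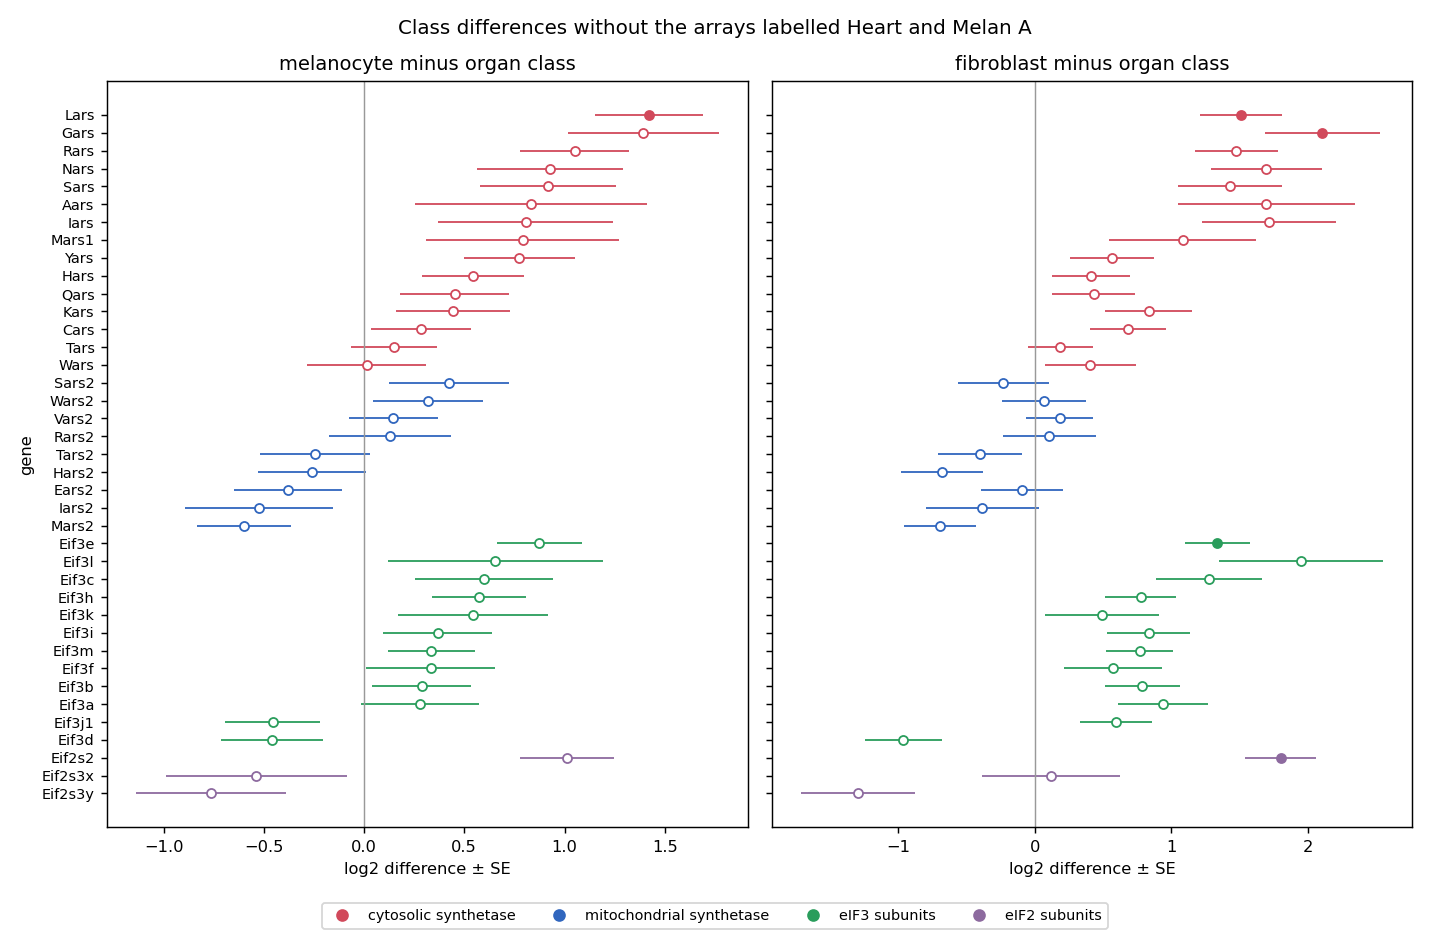
Log2 difference with its standard error (x axis) for synthetase, eIF3 and eIF2 subunit genes (y axis), melanocyte minus organ class on the left and fibroblast minus organ class on the right, without the arrays labelled Heart and Melan A. Filled points passed the limma threshold and open points did not. All 15 cytosolic synthetases lie above 0 in both panels, with medians of 0.79 and 1.08, and Eif3d lies below 0 in both.

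A comparison added after seeing the data set 5 line arrays (D6_MEL, NRAS_MEL, HRAS_MEL, 3T3 and VA_MEF) against Kidney, Liver and Lung and counted genes whose 2 groups do not overlap. Of the 74 members 16 had all 5 lines above all 3 organ-labelled arrays, against 8.87% of all 7044 genes, and 3 had all lines below, against 10.3%. The 16 were 6 of 15 cytosolic synthetases (Gars, Lars, Nars, Rars, Sars and Yars), 4 of 12 eIF3 genes (Eif3c, Eif3e, Eif3h and Eif3m), Eif2s2, Eif2b2, Eif4e, Eif6, Eef1b2 and Eef1g. Yars cleared the rule barely, with 3T3 at -0.475 and Liver at -0.483, and Eif3m narrowly, with NRAS_MEL at -0.18 and Kidney at -0.22. Eef1g is a mean of probes that disagreed. The 3 below were Eif2ak1, Eif4a2 and Mars2, the last a mean of 2 probes that disagreed in the organ-labelled arrays. Without HRAS_MEL, 25 members lay above. Leaving a line out loosens the rule for every gene, so that count cannot be set against the 8.87%. The proliferation medians were -0.53 to 0.22 in the 5 lines and -2.22 to -1.46 in the 3 other arrays, and their part in these counts was not tested.

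The lists of related genes, chosen beside the members, behaved unevenly in the class comparisons without Heart and Melan A. Of the 13 genes on the Atf4 target list, Atf4 included, 3 passed in melanocyte minus organ (Asns, Phgdh and Psat1). In fibroblast minus organ 6 passed (Asns, Mthfd2, Phgdh, Psat1, Psph and Trib3), and all of these were higher in the lines. Of the 13, 8 were above 0 in the first and 11 in the second, with list medians of 0.98 and 1.87. Of 69 cytosolic ribosomal protein genes, 68 were above 0 in the first, median 0.59, with 0 called, and 67 in the second, median 0.65, with 1 called. None of the 10 genes of the synthetase complex and partners passed, with medians of 0.24 and 0.63. None of the 17 other initiation and termination genes passed, with medians of -0.10 and 0.32, nor of the 12 genes of the TOR pathway, at 0.040 and -0.067. The 8 mitochondrial translation factors had medians of -0.52 and -0.37, with none called.

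The RAS-named lines were compared first by limma, NRAS_MEL and HRAS_MEL against D6_MEL and Melan A. None of 7053 genes (0%) passed, with 218 genes and 3 members at an unadjusted p under 0.05, and the smallest adjusted p of a member was 0.882. Those 3 were Eif2s3x at -1.56 ± 0.31 (SE), Eif4g2 at -1.15 and Eif4e3 at -1.31. Upward, Eif3k at 0.80, Rars at 0.96 and Wars2 at 0.55 had the smallest p-values. Without Melan A, which leaves D6_MEL alone on its side, 0 of 7062 genes passed, with 314 genes and 5 members at an unadjusted limma p under 0.05, and Eif2s3x stood at -1.61, Eif4g2 at -0.90 and Eif4e3 at -0.79. Without D6_MEL, 441 of 7062 genes passed (6.24%), among them 1 member, Eif2s3y. There Melan A stands alone on its side and is assumed to vary like the pair NRAS_MEL and HRAS_MEL, so that count restates how far this array lies from that pair, with Eif2s3y at 4.04. Of 9 eIF4 genes 8 were below 0 with all 4 arrays, median -0.41.

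Single arrays were then compared as log2 differences, with no test, counting genes at least 2-fold apart. In NRAS_MEL minus D6_MEL, 4 of 74 members were, against 6.86% of all genes (2.46% higher and 4.4% lower), and all 4 were lower in NRAS_MEL. They were Aars at -1.86, Eif2s3x at -1.64, Eif3l at -1.32 and Eif4g2 at -1.19, the last over 5 probes that ranged from -1.96 to -0.54. The other 70 members lay between -0.997 (Nars) and 0.94 (Eif2b2). Of 9 eIF4 genes 7 were below 0, median -0.67, and of 5 eIF2B genes 4 were above it, median 0.33.

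The difference of HRAS_MEL from D6_MEL reached 2-fold in 10 members, 2 higher and 8 lower, against 11.1% of all genes (5.23% higher and 5.91% lower). The lower ones were 5 of 15 cytosolic synthetases, Aars at -2.07, Mars1 at -1.41, Gars at -1.31, Iars at -1.29 and Nars at -1.003, with Eif2s3x at -1.59, Eif1ad at -1.17 and Eif5a2 at -1.11. The higher ones were Eif3k at 1.13 and Eif1a at 1.01. None of the 9 mitochondrial synthetases was 2-fold apart, and the cytosolic median was -0.52. Both comparisons share the D6_MEL array, so a low or high value there enters both.

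**Figure D5:**
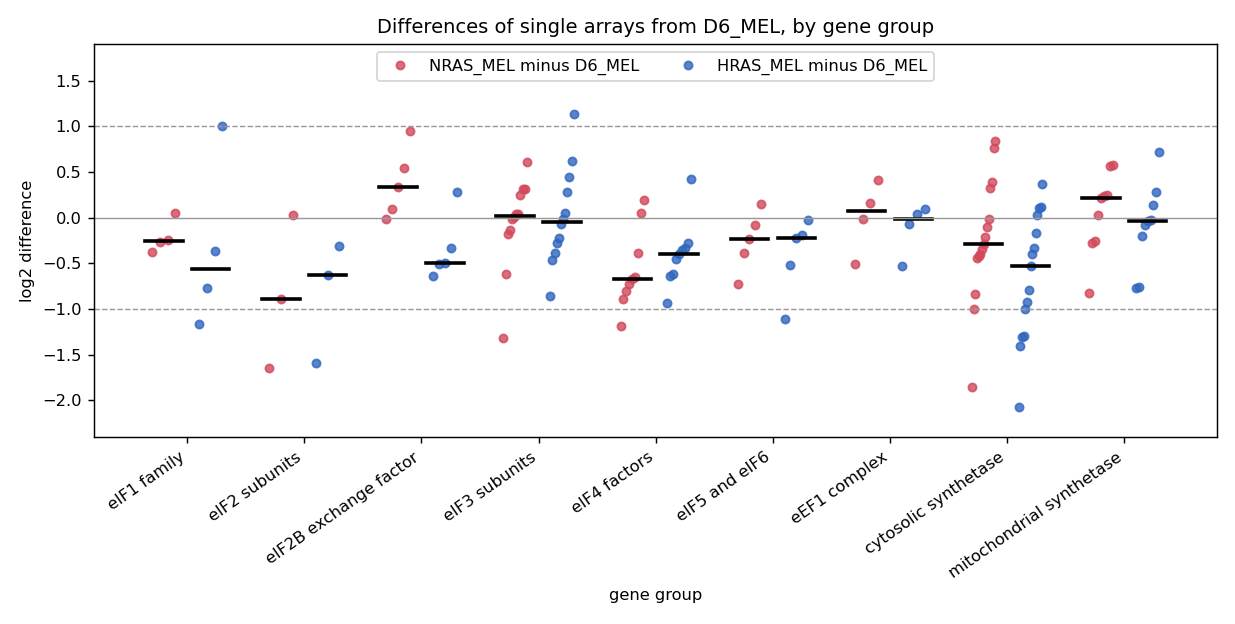
Log2 difference from D6_MEL (y axis) of NRAS_MEL (red) and HRAS_MEL (blue) for the members of 9 gene groups (x axis). Points are genes, black bars are group medians and dashed lines mark 2-fold. In HRAS_MEL 5 cytosolic synthetases lie at or below -1.0 and 0 mitochondrial ones do, and in NRAS_MEL only Aars passes 2-fold among the synthetases. Nars lies at the 2-fold line in both, at -1.003 in HRAS_MEL and -0.997 in NRAS_MEL.

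The array labelled Heart, which is close to D6_MEL, differed from it by at least 2-fold in 2 members, Eif2s3y at 1.25 and Yars at -1.22 in D6_MEL minus Heart, against 2.09% of all genes (1.23% higher and 0.862% lower). With Heart in place of D6_MEL, Aars stood at -1.52 and Eif2s3x at -1.43 in NRAS_MEL. In HRAS_MEL they stood at -1.73 and -1.37. The members at least 2-fold apart then numbered 8 of 74 for NRAS_MEL, 1 higher and 7 lower, against 9.22% of all genes (3.99% higher and 5.23% lower). They numbered 9 for HRAS_MEL, 2 higher and 7 lower, against 11.5% (5.43% higher and 6.1% lower). Of the cytosolic synthetases in HRAS_MEL, Iars at -0.78 and Nars at -0.83 were then no longer 2-fold lower, while Yars at -1.39 was.

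NRAS_MEL minus HRAS_MEL had 5 members at least 2-fold apart, 4 higher and 1 lower, against 9.35% of all genes (4.27% higher and 5.08% lower). Eif2b2 at 1.44, Mars1 at 1.39, Gars at 1.20 and Eif2b3 at 1.18 were higher in NRAS_MEL and Eif1a at -1.27 lower. All 5 eIF2B genes were above 0, median 0.48, as were 13 of 15 cytosolic synthetases, median 0.46. The largest synthetase difference the other way was Qars, the glutamine enzyme, at -0.82.

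The lists of related genes were read on the same arrays. Of the 13 on the Atf4 list, 2 were at least 2-fold lower in NRAS_MEL than in D6_MEL (Mthfd2 at -1.19 and Asns at -1.08). In HRAS_MEL 6 were, with Asns at -2.71 and Mthfd2 at -1.78, while Phgdh stood at 0.67. Atf4 itself was among those 6, with ratios of 1.06 in D6_MEL and -0.027 in HRAS_MEL. The list medians of the differences from D6_MEL were -0.36 in NRAS_MEL and -0.96 in HRAS_MEL. Cytosolic ribosomal proteins had medians of 0.49 and 0.25, with Rpl36a at 1.25 in NRAS_MEL and Rpl15 at 1.36 in HRAS_MEL. Among the mitochondrial translation factors Gfm2 stood at -1.22 and -2.05 and Tufm at 1.03 and 0.55. In the synthetase complex and partners list, Xpot, the exporter of tRNA from the nucleus, stood at 1.58 in NRAS_MEL minus HRAS_MEL. Mknk2, a kinase of Eif4e, stood at 1.98 in HRAS_MEL minus D6_MEL, and Deptor, an inhibitor of TOR, at 1.24.

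VA_475, whose cell type is not given, was set against 3T3, with 4 of 74 members at least 2-fold apart, against 7.22% of all genes (3.18% higher and 4.04% lower). Eif2b2 at 1.28 and Yars at 1.08 were higher and Nars at -1.14 and Iars at -1.09 lower in VA_475. The cytosolic synthetase median was -0.32 and that of the Atf4 target list -0.39.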

How the data were processed

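Two-colour cDNA arrays measured 11 samples, 1 array each, with no dye swap. The authors deposited 1 value table with log2 ratios (base 2 assumed; their background correction and normalization: not given in the sources used here), with 15170 to 15210 values per array. Of 15247 probes, 9600 had 1 gene symbol, 214 several and 5433 are unnamed here; only the first were used. Signs were turned to own RNA over reference, from organ marker genes; probes of 1 gene were averaged and arrays centred on their median. The number of arrays limits the precision. Groups came from the labels, and array columns from the sample they name.

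The class comparisons used limma 3.58.1 under R 4.3.3 (lmFit, eBayes, Benjamini-Hochberg over all genes), tested on simulated data, on genes with at least 3 melanocyte, 3 organ and 2 fibroblast values. The 1-array comparisons have no test. Python 3.11.15 with pandas 2.3.3 read RefSeq promoters of GRCm38.p6.

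Members and lists were chosen with earlier results of these data known. Values in every array are given for paralogue and partner sets, the 2 members of widest range in each role and the 4 synthetases of widest range; values in a comparison for members 2-fold apart or past the threshold, otherwise the 3 smallest p each way, and the 2 highest and lowest of other lists. Other names were chosen after their values were seen. Alternatives were no centring, quantile normalization, 1 probe or the median of probes, other array sets and a natural-log base.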

Additional observations from a re-analysis of the deposited data

Results flagged for a closer look

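In 82 class groups of 4 arrays, 3 had an array standing apart from the other 3 by Dixon's criterion, and chance gives about 1 in 20. Eif6 stood at -0.77 in Melan A, while the other 3 arrays labelled as melanocyte lines lay at 0.24 to 0.33; the heart markers of that array are high as well. Eef2kmt stood at 0.49 in Kidney, while Heart, Liver and Lung lay at -0.56 to -0.40. Eif2d stood at 0.48 in Lung, while the other 3 arrays labelled as organs lay at 0.045 to 0.072.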

How the results depend on the processing

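Each group had 1 array, so leaving arrays out stands in for replicates. No paired analysis was possible because each group has 1 array. Of the alternatives to main counts and medians, 194 kept within limits and 11 moved, and the elongation median of VA_MEF changed sign. The count of called members was 0 in each class comparison under every single array left out. It was 1 (melanocyte minus organ) and 4 (fibroblast minus organ) without the arrays labelled Heart and Melan A, and for the RAS-named pair it ran from 0 to 1 with 1 array left out, the 1 coming without D6_MEL. Over the 19 settings the adjusted limma p of Lars in melanocyte minus organ ran from 0.0445 to 0.999. In fibroblast minus organ it ran from 0.0249 to 0.858 for Eif2s2, from 0.0369 to 0.858 for Eif3e and from 0.0483 to 0.858 for Gars and Lars. Members at least 2-fold apart in NRAS_MEL minus D6_MEL, 4 in all, were 7 with quantile normalization, 15 if the deposited values were natural logs and 8 with Heart in place of D6_MEL. Natural logs gave 18 for HRAS_MEL minus D6_MEL and 13 for NRAS_MEL minus HRAS_MEL. A different base or normalization changes the 2-fold count of all genes too. The all-gene shares given above therefore do not apply to the quantile and natural-log counts. With Heart in place of D6_MEL the all-gene share for NRAS_MEL was 9.22%. The elongation median of VA_MEF turned from -0.47 to 0.15 with 1 probe per gene or the median of probes. Without Heart and Melan A the melanocyte minus organ median of the 3 eIF2 subunit genes went from 0.59 to -0.54 and that of the other initiation and termination genes from 0.076 to -0.10. Members with all lines above the 3 organ-labelled arrays numbered 16 to 25 with 1 array left out, 25 without HRAS_MEL. Leaving an array out loosens this rule for all genes, whose share in those settings is not given here. The files hold no signal over background, so dim spots could not be told from bright ones.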

Other observations

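Iars was most like Eif3a over the 11 arrays, at r of 0.93, followed by Uchl5 and Eprs, both at 0.92; Eprs is the joint glutamate and proline tRNA synthetase, which the symbol rule leaves out. Eprs stood at 1.74 in VA_MEF, 0.64 in D6_MEL, 0.54 in 3T3 and Heart and -0.75 in Liver, the same highest and lowest arrays as Iars. Without Heart and Melan A these r were 0.93, 0.92 and 0.93. The correlation describes arrays that share a reference.

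Farsa, a subunit of the phenylalanine enzyme also outside the rule, stood 0.80 higher in NRAS_MEL than in D6_MEL and 0.40 higher in HRAS_MEL, with 1 array on each side. Ppp1r15a, which recruits the phosphatase of eIF2, stood 1.19 higher in NRAS_MEL than in D6_MEL and 1.12 higher than in HRAS_MEL.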
